A study of Mus musculus with 9 samples.

Results

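Gfi1b and 9 genes of the megakaryocyte and platelet lineage or of its early programme (Zfpm1, Pf4, Itga2b, Itgb3, Gp9, Gp1bb, Gp5, Vwf and Cnrip1) were followed across wild-type (WT), E2A-/- and Lyl1-/- progenitors of mouse bone marrow. The genes were chosen by name, and GEO's platform annotation assigned 14 probe sets to them alone, out of 34945 probe sets with 1 gene and 18193 genes in all. A further probe set is annotated to Gp1bb together with a neighbouring gene and was not used. The cells had been sorted as lacking lineage markers and carrying CD117, SCA-1 and CD135, the surface phenotype of multipotent progenitors with lymphoid potential. Each genotype had 3 Affymetrix arrays, called independent biological replicates in the labels. WT mice are labelled wild-type controls, E2A-/- mice lack E2A, the E protein encoded by Tcf3, and Lyl1-/- mice lack Lyl1, a close relative of Tal1 that pairs with E proteins to bind DNA. The labels name no other allele or agent and no treatment. Age, sex, strain, the deleted exons and whether animals were pooled are not given in the sources used here.

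Megakaryocytes arise from progenitors they share with red cells and shed platelets into the blood. Gfi1b is a zinc-finger repressor that works with the demethylase LSD1 and is needed for both lineages, and Zfpm1 (FOG-1) is the cofactor through which GATA1 acts in them. Itga2b and Itgb3 encode the alpha IIb and beta 3 chains of the platelet fibrinogen receptor. Itga2b, known as CD41, also appears early, on progenitors and on some stem cells. Gp9, Gp1bb and Gp5 are chains of the platelet receptor for von Willebrand factor, which Vwf encodes, and Pf4 is a chemokine stored in platelet granules. Cnrip1 encodes a protein that binds the cannabinoid receptor. E2A, Lyl1 and Tal1 bind E-boxes in DNA, Tal1 often beside a GATA site.

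WT 1 and WT 3 differed from each other far less than any other pair of arrays. The robust spread of their log2 difference at the brightest probe sets was 0.0835, against 0.193 to 0.376 in the other pairs of the 36, and 0 probe sets lay beyond a 2-fold difference. They were counted as 1 sample, so that WT had n = 2 and each knockout n = 3. Lyl1 itself read 1352 to 1443 in WT and 79.2 to 92.0 in Lyl1-/- cells, while the 2 tested Tcf3 probe sets overlapped between E2A-/- and WT. Another Tcf3 probe set, dim and untested, read 65.3 to 69.7 in E2A-/- and 72.0 to 74.3 in WT cells. Since the deleted exons are unknown here, these probe sets do not check that label. Flt3, the gene of CD135, read 671.6 to 1302 over the 9 arrays and Kit, the gene of CD117, 313.6 to 507.7. Lineage markers lay on both sides of the array medians of 77.9 to 79.2. The B cell marker Cd79a read 68.5 to 75.1 and the myeloid marker Itgam 59.1 to 67.5, below them. The brightest probe sets of the T cell markers Cd3e (103 to 120.1), Cd4 (79.6 to 93.3) and Cd8a (82.1 to 96.9) lay above. Intensity alone does not show whether such a gene was expressed. E2A-/- 2 and 3 carried transcripts of mature granulocytes: the summed intensity of 12 such markers was 16428 and 19150, against 1545 to 3380 on the other 7 arrays, where Lyl1-/- 1 and 2 were the highest at 3380 and 2741 and WT lay at 1580 to 1800. The ratio of the actin 3-prime over the 5-prime probe set, a sign of RNA degradation, was 10.6 on WT 2 and 10.1 on E2A-/- 2 and 2.85 to 4.23 elsewhere. These are bulk samples, in which fewer cells of a type and less RNA per cell cannot be told apart.

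The promoters of Gfi1b, Itga2b and Cnrip1 are shown because these 3 genes had the largest log2 differences between genotypes among the genes followed, each in another pattern. Only Gfi1b had a difference with limma adjusted p under 0.05, between the knockouts. Promoter sequences came from RefSeq (GRCm38.p6), which matched 8 of the 10 genes, all but Itgb3 and Vwf. Each runs from 250 bases before the gene's start to 50 after it, on the gene's strand, and capitals mark E-boxes (CANNTG) and the GATA motif (AGATAA) on either strand.
Gfi1b, chr2:28621933-28622232, minus strand: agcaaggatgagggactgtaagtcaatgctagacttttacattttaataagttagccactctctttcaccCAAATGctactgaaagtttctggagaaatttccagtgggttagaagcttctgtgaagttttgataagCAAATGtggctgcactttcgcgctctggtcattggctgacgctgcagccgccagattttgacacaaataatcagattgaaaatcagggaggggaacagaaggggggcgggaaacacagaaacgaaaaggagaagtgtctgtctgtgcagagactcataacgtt
Itga2b, chr11:102469834-102470133, minus strand: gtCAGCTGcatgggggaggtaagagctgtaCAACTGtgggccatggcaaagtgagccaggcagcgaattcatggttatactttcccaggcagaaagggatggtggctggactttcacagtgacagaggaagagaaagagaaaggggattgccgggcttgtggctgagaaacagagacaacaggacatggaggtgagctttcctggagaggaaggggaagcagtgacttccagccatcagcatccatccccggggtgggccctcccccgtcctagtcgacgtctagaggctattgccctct
Cnrip1, chr11:17051609-17051908, plus strand: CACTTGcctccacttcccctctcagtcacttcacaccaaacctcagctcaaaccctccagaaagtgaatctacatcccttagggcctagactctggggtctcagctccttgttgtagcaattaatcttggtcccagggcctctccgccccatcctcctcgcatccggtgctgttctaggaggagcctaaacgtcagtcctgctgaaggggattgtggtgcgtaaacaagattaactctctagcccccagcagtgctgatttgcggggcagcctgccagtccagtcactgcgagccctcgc
The Gfi1b promoter held 2 E-boxes, both with the letters CAAATG, the Itga2b promoter 2 and the Cnrip1 promoter 1. The letters AGATAA were found in 0 of these 3 windows. Other forms of a GATA site, such as the letters TGATAA just before an E-box of the Gfi1b window, were not searched. Over the 8 matched genes, 5 promoters held an E-box, against 72.3% of all 32851 promoters of the same length. The GATA motif was found in 2 (Pf4 and Gp5), against 11.2% of all promoters. The core letters AAATCA of the GFI1 motif were found in 2 (Gfi1b itself and Cnrip1), against 14% of all, and the ETS core CCGGAA in 1 (Pf4), against 14.9%. Letters alone do not show that a factor binds.

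Probe sets were tested where at least 3 arrays exceeded their own median, 20402 in all and 12 of the 14 of these genes, with each of the 10 genes represented. Only 6 of the 14 lay above the median on all 9 arrays: those of Gfi1b, Pf4, Itga2b and Gp9, and the brighter ones of Zfpm1 and Cnrip1. All deposited intensities lie above a floor of 42.1 to 45.1 per array, so differences of the dim probe sets are understated. Probe sets of different genes cannot be ranked by intensity, and all tests of a difference below are between genotypes.

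**Figure D1:**
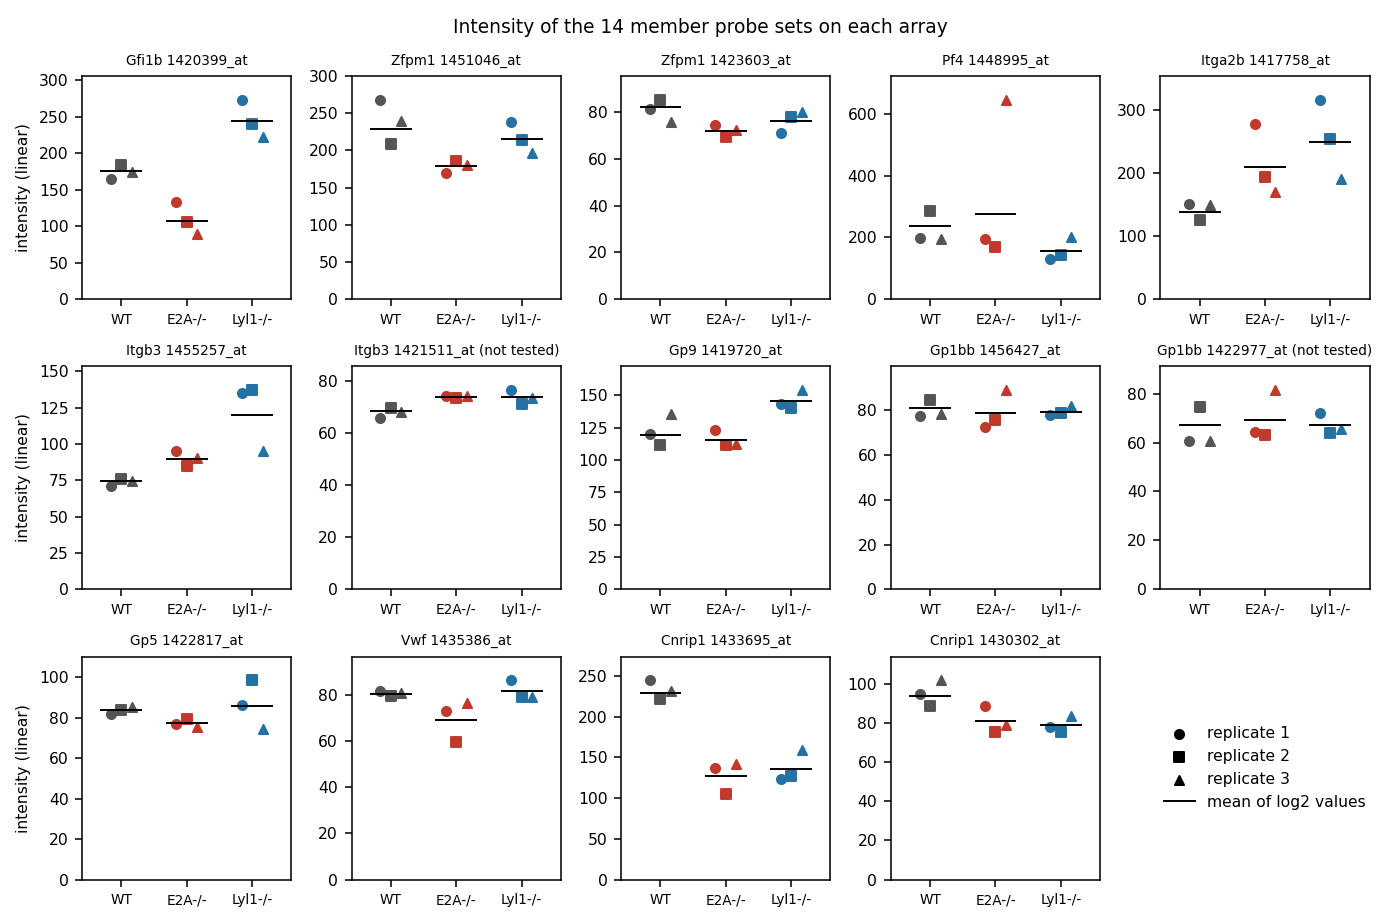
Each panel plots the linear intensity of 1 of the 14 probe sets (y axis, from 0) by genotype (x axis), with 1 point per array and a line at the mean of log2 values, WT 1 and 3 counted as 1. For Gfi1b the 3 E2A-/- arrays lie below and the 3 Lyl1-/- arrays above the WT arrays, while Pf4 has a single high array, E2A-/- 3 at 646.1.

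Gfi1b was lowest in E2A-/- progenitors, intermediate in WT and highest in Lyl1-/- progenitors. Its intensity was 164.2, 183.1 and 174.3 on the WT arrays, 133.3, 105.7 and 89.2 on the E2A-/- arrays, and 272.9, 239.9 and 222.4 on the Lyl1-/- arrays. The 3 genotypes did not overlap on any array. On the log2 scale the level was 6.75 ± 0.29 (SD, n = 3) in E2A-/-, 7.46 ± 0.08 (SD, n = 2) in WT and 7.93 ± 0.15 (SD, n = 3) in Lyl1-/- cells. The difference between the knockouts passed the threshold: Gfi1b was 2.26-fold lower in E2A-/- than in Lyl1-/- cells (log2 difference -1.18, SE 0.15, 95% interval -1.52 to -0.84, limma adjusted p = 0.0488). It was 1 of 15 probe sets called in that comparison, 0.0735% of those tested, where 0.0147% of all were lower and 0.0588% higher, and the only 1 called of the 12 tested here. Neither neighbour in the order was separated from WT after adjustment. The log2 difference from WT was -0.71 in E2A-/- cells (SE 0.168, limma adjusted p = 0.234) and 0.47 in Lyl1-/- cells (SE 0.168, limma adjusted p = 0.469).

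The call for Gfi1b lay close to the threshold. It was lost in 12 of 20 alternative fits, 3 of which leave a genotype with 1 sample whose spread is assumed to be that of the others, with limma adjusted p from 0.0164 to 0.551, while the difference stayed between -1.45 and -0.87. Leaving out 1 array ended it for WT 2 (adjusted p = 0.108), WT 3 (0.0541), E2A-/- 2 (0.162), E2A-/- 3 (0.126), Lyl1-/- 1 (0.34), Lyl1-/- 2 (0.304) and Lyl1-/- 3 (0.0763) by limma. On E2A-/- 1, which had granulocyte markers at 1613 in sum against 1580 to 1800 in WT, Gfi1b read 133.3, below all WT arrays. In a fit with that array as the only E2A-/- sample, which takes its spread from the other genotypes alone and so checks no replicate, the log2 difference was -0.87 from Lyl1-/- and -0.40 from WT, against -0.71 with all E2A-/- arrays.

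Zfpm1 was lower in E2A-/- progenitors on all 3 arrays, without passing the threshold. Its brighter probe set read 268, 208.1 and 240.2 in WT, 170.2, 185.6 and 181.1 in E2A-/- and 238.6, 213.8 and 196.1 in Lyl1-/- cells. The E2A-/- arrays lay below every WT and every Lyl1-/- array, and WT and Lyl1-/- overlapped. The log2 difference from WT was -0.36 in E2A-/- (SE 0.124, limma adjusted p = 0.494) and -0.09 in Lyl1-/- cells (limma adjusted p = 0.936), and E2A-/- minus Lyl1-/- was -0.27 (SE 0.111, limma adjusted p = 0.611). The dimmer probe set read 76.0 to 85.3 in WT, 69.6 to 74.4 in E2A-/- and 71.0 to 80.3 in Lyl1-/- cells, again with no overlap between E2A-/- and WT.

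Itga2b and Itgb3, the paired chains of the platelet fibrinogen receptor, were both higher on every knockout array than on every WT array, without passing the threshold. Itga2b read 151.9, 125.6 and 149.9 in WT, 278.7, 194 and 170.2 in E2A-/- and 316.6, 254.6 and 190.3 in Lyl1-/- cells. The knockouts overlapped with each other. The log2 difference from WT was 0.61 in E2A-/- (SE 0.251, limma adjusted p = 0.595) and 0.85 in Lyl1-/- cells (SE 0.251, limma adjusted p = 0.378). Between the knockouts it was -0.25 (95% interval -0.76 to 0.27), which turned to 0.17 with E2A-/- 1 as the only E2A-/- array, where the difference of E2A-/- from WT was 1.02. Without E2A-/- 1 that difference from WT was 0.40.

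The brighter Itgb3 probe set read 71, 76 and 74.3 in WT, 95, 84.9 and 90.2 in E2A-/- and 134.9, 137.1 and 95 in Lyl1-/- cells. Lyl1-/- 1 and 2 stood well above the E2A-/- arrays, and Lyl1-/- 3 was level with the highest of them. The log2 difference was 0.70 in Lyl1-/- (SE 0.16, limma adjusted p = 0.223) and 0.27 in E2A-/- cells (SE 0.16, limma adjusted p = 0.773). Without Lyl1-/- 3 the Lyl1-/- difference was 0.87 and passed (limma adjusted p = 0.0236), the single such fit among its alternatives. Lyl1-/- 1 and 2 are also the Lyl1-/- arrays with the higher granulocyte sums (3380 and 2741, against 1545 on Lyl1-/- 3). Those sums were higher still on E2A-/- 2 and 3 (16428 and 19150), where this Itgb3 probe set read 84.9 and 90.2. It read 95 on E2A-/- 1, with a sum of 1613. The part of granulocyte transcripts in the Itgb3 value was not tested. The second probe set of Itgb3, below the array median everywhere and not tested, read 66.1 to 69.8 in WT, 73.5 to 74.5 in E2A-/- and 71.3 to 76.6 in Lyl1-/- cells, with the same order against WT.

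**Figure D2:**
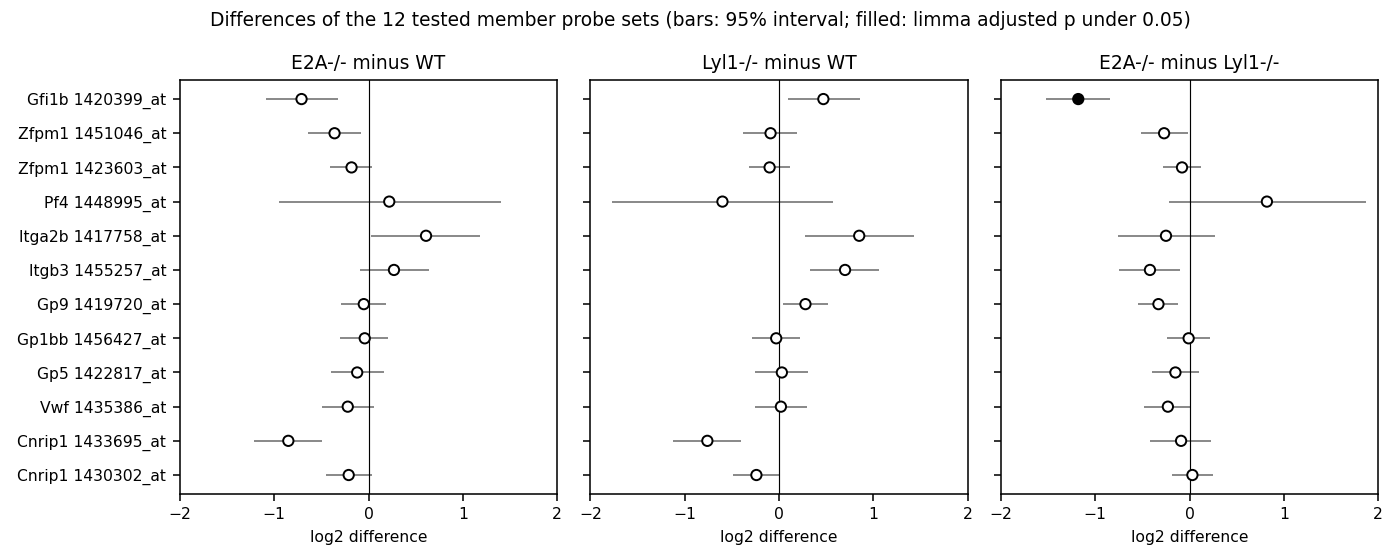
Points give the log2 difference (x axis) of each of the 12 tested probe sets in E2A-/- minus WT, Lyl1-/- minus WT and E2A-/- minus Lyl1-/-, with 95% intervals from limma. The filled point is the 1 difference past the threshold, Gfi1b between the knockouts at -1.18; Itga2b at 0.61 and 0.85 and the brighter Cnrip1 probe set at -0.85 and -0.76 lie on one side of 0 in both comparisons with WT, which share their WT samples.

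The von Willebrand factor receptor genes differed little. Gp9 read 120.4, 112 and 135.9 in WT, 123.6, 111.4 and 112.1 in E2A-/- and 143.2, 139.9 and 154 in Lyl1-/- cells. The Lyl1-/- arrays lay above all others, while WT and E2A-/- overlapped. The Gp9 log2 difference was 0.28 in Lyl1-/- (SE 0.104, limma adjusted p = 0.49), -0.05 in E2A-/- (95% interval -0.29 to 0.19) and -0.33 between E2A-/- and Lyl1-/- cells (SE 0.0932, limma adjusted p = 0.459). Gp1bb read 77.4 to 84.5 in WT, 72.5 to 89 in E2A-/- and 77.8 to 81.8 in Lyl1-/- cells with its tested probe set, and all genotypes overlapped. Its differences from WT were -0.04 (95% interval -0.30 to 0.21) and -0.03 (-0.29 to 0.22), and the untested Gp1bb probe set ranged from 60.6 to 81.4 with full overlap. Gp5 read 81.6 to 85.4 in WT, 75.5 to 79.1 in E2A-/- and 74.3 to 98.3 in Lyl1-/- cells, where E2A-/- lay below WT without overlap, and that log2 difference was -0.12 (95% interval -0.40 to 0.16).

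Vwf, the ligand of that receptor and a marker of platelet-biased stem cells, read 81.5, 79.4 and 80.8 in WT, 72.8, 59.6 and 76.3 in E2A-/- and 86.2, 79 and 79 in Lyl1-/- cells. The values lay near the array median except on E2A-/- 2 (59.6 against a median of 78.1), and E2A-/- was below both other genotypes. The log2 difference from WT was -0.22 in E2A-/- (SE 0.122, limma adjusted p = 0.76) and 0.02 in Lyl1-/- cells (95% interval -0.26 to 0.30). Without E2A-/- 2, an array with an actin ratio of 10.1, the E2A-/- difference became -0.11. WT 2, with a ratio of 10.6, read 79.4, beside 81.5 and 80.8 on the other WT arrays. The part of RNA degradation in the Vwf value was not tested.

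Pf4 was decided by single arrays. It read 197.9, 285.7 and 195.3 in WT, 195.6, 167.7 and 646.1 in E2A-/- and 131.1, 143.8 and 202.5 in Lyl1-/- cells. E2A-/- 3 was more than double the highest other array, and the genotypes overlapped otherwise. The log2 difference of E2A-/- from WT was 0.22 (SE 0.514, limma adjusted p = 0.978) and became -0.39 without E2A-/- 3 (limma adjusted p = 0.852). Lyl1-/- minus WT was -0.60 (95% interval -1.77 to 0.57). On E2A-/- 3 the platelet chemokine Ppbp read 118 against 59.5 to 71.1 elsewhere. Both Gp1bb probe sets were also highest there, at 89 against 72.5 to 84.5 and 81.4 against 60.6 to 74.7, and a probe set of the clotting factor gene F5 read 100 against 58.1 to 67.4. Gp9 read 112.1 on that array, inside the WT range, and Itga2b 170.2, the lowest of the E2A-/- arrays. Erythroid markers, 14 genes, summed to 4562 on that array against 2188 to 3367 on the other 8, with the red cell anion exchanger Slc4a1 at 735.7 against 85.7 to 299.9 and the globin gene Hbb-b2 at 303 against 71.8 to 123.5. Hba-a1 stayed at 60.7 to 69.9 on all 9 arrays. The mast cell receptor gene Fcer1a read 168.6 on E2A-/- 3 and 53.5 to 67.6 elsewhere. By the brightest probe set of the other mast cell and basophil markers, Mcpt8 (277.7), Hdc (122.8) and Ms4a2 (73.9) were also highest there. Cpa3 (130.7), Gzmb (73.7) and Cma1 (74) were not. The part of these transcripts in the Pf4 value was not tested.

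**Figure D3:**
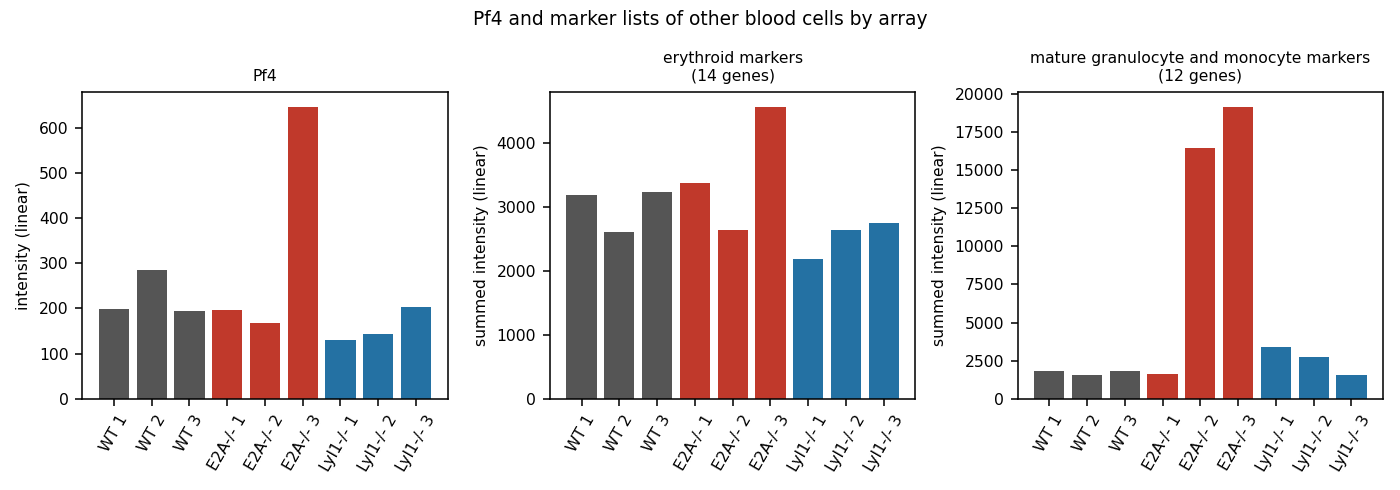
Bars give the intensity of Pf4 and the summed intensities of 14 erythroid and of 12 mature granulocyte and monocyte markers (y axes, linear, from 0) on each of the 9 arrays (x axis). E2A-/- 3 is highest in all 3 panels, with Pf4 at 646.1, and E2A-/- 2 shares only the granulocyte signal, at 16428.

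Cnrip1 was lower in both knockouts than in WT on all arrays. Its brighter probe set read 244.6, 221.9 and 231.1 in WT, 137.7, 105.7 and 141.7 in E2A-/- and 123.7, 127.3 and 158.8 in Lyl1-/- cells. Both knockouts lay apart from WT and overlapped with each other. Cnrip1 was 1.80-fold lower in E2A-/- (log2 difference -0.85, SE 0.159, limma adjusted p = 0.118) and 1.69-fold lower in Lyl1-/- cells (-0.76, SE 0.159, limma adjusted p = 0.193), and neither passed. E2A-/- minus Lyl1-/- was -0.09 (95% interval -0.42 to 0.23). Both differences from WT passed only when WT 1 and WT 3 were counted as separate samples, at -0.87 (limma adjusted p = 0.0222) and -0.78 (0.0405). With the replicate number as a block in that fit the adjusted p-values were 0.0309 and 0.0436. The dimmer probe set read 88.9 to 101.7 in WT, 75.6 to 88.7 in E2A-/- and 75.5 to 83.7 in Lyl1-/- cells, with differences of -0.21 and -0.24. With E2A-/- 1, whose granulocyte sum lay within the WT range, as the only E2A-/- array, the brighter probe set gave -0.74, a value with no replicate in that arm.

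Over all 14 probe sets, E2A-/- and WT arrays did not overlap for 7 lower and 3 higher, where 7.92% and 7.35% of the 34945 probe sets with 1 gene behaved so, 15.3% in all. Lyl1-/- and WT did not overlap for 5 higher and 2 lower, against 8.62% and 9.02% of all (17.6% together). E2A-/- and Lyl1-/- did not overlap for 4 lower and 0 higher in E2A-/-, against 5.24% and 5.11% of all (10.3% together). The 4 were Gfi1b, Gp9, Vwf and the brighter Zfpm1 probe set. After adjustment over all probe sets by limma, 0 of the 12 tested passed in E2A-/- minus WT (0.221% of all tested, 0.0833% higher and 0.137% lower) and 0 in Lyl1-/- minus WT (0.216% of all tested, 0.0686% higher and 0.147% lower). Before adjustment, p was under 0.05 for 4 (3 lower, 1 higher), 5 (4 higher, 1 lower) and 4 (all lower) in E2A-/- minus WT, Lyl1-/- minus WT and E2A-/- minus Lyl1-/-. Of all tested probe sets 8.08%, 8.36% and 7.72% had an unadjusted p under 0.05. Several genes contribute 2 probe sets, and both comparisons with WT share their WT samples, so these counts are a description. Differences above 0 numbered 3, 6 and 2 of the 12, against 46.7%, 48.9% and 47.1% of all tested. The median log2 difference of the 12 was -0.15, -0.01 and -0.19 in the same order, against -0.0114, -0.00385 and -0.00886 over all tested probe sets.

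Other megakaryocyte and platelet genes gave no call. Of 36 listed genes 32 had a probe set of their own, and 40 probe sets of 21 genes were tested. In each of the 3 comparisons 0 of the 40 passed by limma, while p before adjustment was under 0.05 for 6 (3 higher, 3 lower) in E2A-/- minus WT, 5 (3 higher, 2 lower) in Lyl1-/- minus WT and 6 (1 higher, 5 lower) between the knockouts. Of all tested probe sets 8.08%, 8.36% and 7.72% had such a p in the same order. The median differences of the 40 were -0.08, 0.02 and -0.07. The adhesion receptor gene Selp, P-selectin, had the smallest p of the list in Lyl1-/- minus WT. The probe set concerned read 146.4, 110.5 and 118.6 in WT, 245.4, 219.4 and 234.3 in E2A-/- and 614.8, 676.3 and 224.7 in Lyl1-/- cells. All knockout arrays were above WT, and Lyl1-/- 3 lay within the E2A-/- range. The log2 difference from WT was 1.91 in Lyl1-/- (SE 0.403, limma adjusted p = 0.193) and 0.95 in E2A-/- cells (limma adjusted p = 0.603). The brightest Selp probe set gave 1.95 in Lyl1-/- (limma adjusted p = 0.378) and 1.80 in E2A-/- cells (limma adjusted p = 0.429), and the remaining one 1.32 and 0.67. In that order of probe sets, E2A-/- minus Lyl1-/- was -0.96, -0.15 and -0.65, so the size of the gap depended on the probe set. F13a1, the clotting factor XIII A chain of platelets and monocytes, read 100.7, 102 and 99.7 in WT, 76.2, 70.2 and 122.8 in E2A-/- and 188.6, 187.6 and 105.3 in Lyl1-/- cells, and between the knockouts it stood at -0.83 (limma adjusted p = 0.506). Selp and F13a1 were both high on Lyl1-/- 1 and 2, the arrays with granulocyte sums of 3380 and 2741, and not on Lyl1-/- 3. On E2A-/- 1, 2 and 3 those sums were 1613, 16428 and 19150. There F13a1 read 76.2, 70.2 and 122.8 and the Selp probe set first named 245.4, 219.4 and 234.3. The brightest Selp probe set read 369.3, 403.1 and 529.2 on the same arrays. The part of granulocyte transcripts in these values was not tested. The thromboxane synthase gene Tbxas1 stood at -0.41 and -0.36 against WT in E2A-/- and Lyl1-/- cells. Slc35d3, a transporter of platelet dense granules, stood at 0.73 against WT in E2A-/- (limma adjusted p = 0.536) and 0.54 in Lyl1-/- cells (limma adjusted p = 0.676). Probe sets of genes of mature megakaryocytes and platelets lay on both sides of the array median, which does not rank the genes. Clec1b, Gp6, P2ry12 and Thbs1 lay below the array median on all 9 arrays, with intensities between 55.4 and 71.6. Treml1, a platelet granule receptor, read 89.5 to 97.5, above the median on all 9, and Tubb1, the platelet beta tubulin, 68.8 to 89.8.

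Transcription factors and cofactors around Gfi1b and Zfpm1 gave no call, and named members ran both ways between the knockouts. Of 20 listed genes 19 were tested with 43 probe sets, and 0 passed in any comparison by limma. Unadjusted p was under 0.05 for 12 (3 higher, 9 lower) in E2A-/- minus WT and 8 (1 higher, 7 lower) in Lyl1-/- minus WT. In E2A-/- minus Lyl1-/- the count was 7 (6 higher, 1 lower). The shares of all tested probe sets were 8.08%, 8.36% and 7.72%. Between the knockouts, Runx1, needed for megakaryocyte maturation, had the smallest p of the list, at a probe set with the same order of genotypes as Gfi1b. The probe set concerned read 235.8, 272.9 and 237.9 in WT, 210.2, 205.1 and 213.7 in E2A-/- and 300, 283.1 and 244.2 in Lyl1-/- cells, with E2A-/- below both others and WT overlapping with Lyl1-/-. It stood at -0.39 between the knockouts (SE 0.104, limma adjusted p = 0.436). Gfi1, the paralogue of Gfi1b that shares its DNA-binding fingers, ran the other way between the knockouts: it read 290.8, 258.2 and 291.3 in WT, 302, 364.8 and 227.5 in E2A-/- and 161.8, 164.2 and 225.7 in Lyl1-/- cells. The E2A-/- arrays lay above all Lyl1-/- arrays, by 0.69 on the log2 scale (SE 0.191, limma adjusted p = 0.459). Klf1, the erythroid partner factor of GATA1, was at 0.89 between the knockouts (limma adjusted p = 0.474), with 257.2, 146.9 and 274.7 in E2A-/- and 154.4, 94 and 112.5 in Lyl1-/- cells. The brightest Runx1 probe set had another order, with WT highest in mean. It stood at -0.46 in E2A-/- minus WT and -0.15 in Lyl1-/- minus WT. Meis1, a homeobox factor of stem cells and megakaryocytes, stood at -0.82 in Lyl1-/- minus WT (limma adjusted p = 0.10) and -0.41 in E2A-/- minus WT (limma adjusted p = 0.50). Hdac1, a histone deacetylase of the Gfi1b corepressor complex, was higher than in WT in both knockouts. The difference was 0.46 in Lyl1-/- (limma adjusted p = 0.304) and 0.32 in E2A-/- cells (limma adjusted p = 0.565). Gata1 read 97 to 193.3 and Tal1 321.9 to 471.7 over the 9 arrays, with limma adjusted p from 0.55 to 0.994 in the 3 comparisons.

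Lists of other cells in the gate were read beside these values. Of all tested probe sets, 8.08% in E2A-/- minus WT, 8.36% in Lyl1-/- minus WT and 7.72% between the knockouts had an unadjusted p under 0.05. Erythroid markers, 14 tested probe sets of 11 genes, had 0 calls by limma in each comparison, with unadjusted p under 0.05 for 3 (all higher) in E2A-/- minus WT, 0 in Lyl1-/- minus WT and 6 (all higher) in E2A-/- minus Lyl1-/-. Carbonic anhydrase gene Car1 read 741.3, 199.1 and 638.4 in E2A-/- and 108.7 to 133.3 in Lyl1-/- cells, with 130.9 to 195.8 in WT. Of 23 tested probe sets of stem cell markers, 4 were called lower in each knockout against the same WT samples. Over all tested probe sets 0.137% were called lower in E2A-/- and 0.147% in Lyl1-/- minus WT. All 4 of the stem cell list belong to 1 gene in both comparisons, Ndn, a growth suppressor of quiescent stem cells. Its brightest probe set stood at -1.18 in E2A-/- and -1.26 in Lyl1-/- cells (limma adjusted p = 0.0114 and 0.00839). Before adjustment, p was under 0.05 for 14 of the 23 (12 lower, 2 higher) in E2A-/- and 9 (all lower) in Lyl1-/- minus WT, with median differences of -0.52 and -0.42. Among them the stem cell regulator Mecom stood at -0.76 and -0.52 (limma adjusted p = 0.136 and 0.357) and the adhesion receptor Adgrg1 at -1.08 and -0.85 (limma adjusted p = 0.239 and 0.398). Robo4 and Fgd5 of the same list stood at -0.52 and -0.64 in E2A-/- but at -0.07 and -0.13 in Lyl1-/- minus WT. Both probe sets that were higher in E2A-/- minus WT belong to Vldlr, at 0.39 and 0.66. They stood at -0.11 and 0.14 in Lyl1-/- minus WT. Between the knockouts 0 of the 23 passed by limma, and 5 (3 lower, 2 higher) had p under 0.05 before adjustment. Granulocyte and lymphoid priming markers had 0 calls by limma in each comparison. At an unadjusted p under 0.05, 4 of 11 granulocyte probe sets were higher and 5 of 19 lymphoid ones lower in E2A-/- minus WT. In Lyl1-/- minus WT the counts were 0 and 1, and between the knockouts 1 (higher) and 3 (lower). Mast cell (4 probe sets), lineage (6) and sort gate markers (4) had 0 calls by limma and 0 at an unadjusted p under 0.05 in each comparison, except 1 sort gate probe set, of Kit, at -0.40 in Lyl1-/- minus WT. Their part in the Gfi1b values was not tested.

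By the Pearson correlation with Gfi1b over the 8 samples, the genes of most similar pattern among 1269 probe sets that spanned at least 1 on the log2 scale were Ppp5c (r = 0.993), a protein phosphatase, Dtnbp1 (0.947), a subunit of a lysosome-related organelle complex, Tubb6 (0.926), a beta tubulin, Ltc4s (0.912), the leukotriene C4 synthase, and Rab38 (0.91), a GTPase of lysosome-related organelles. They were picked as the most similar of many, so these values are a description. Ppp5c read 294.3 to 321 in WT, 188.8 to 254.9 in E2A-/- and 348.8 to 381.3 in Lyl1-/- cells, with no overlap. Its log2 difference between the knockouts was -0.72 (limma adjusted p = 0.154), and those of the other 4 ran from -1.11 to -0.68 without passing. Among the other genes followed here, Gp9 came closest to Gfi1b (r = 0.80) and Pf4 ran most against it (r = -0.66).

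**Figure D4:**
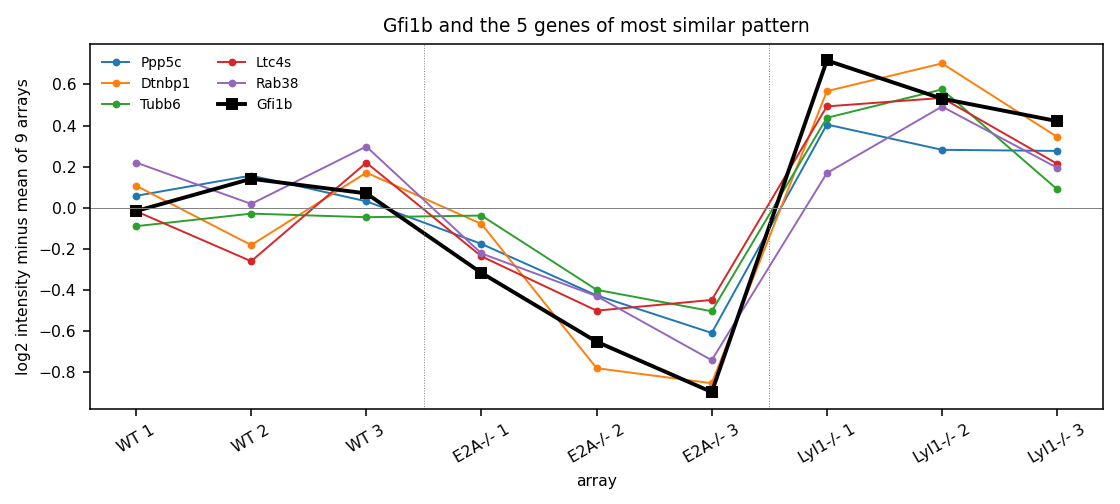
Lines give log2 intensity minus the mean of the 9 arrays (y axis) by array (x axis) for Gfi1b (black squares) and the 5 genes of most similar pattern. All 6 are lowest on E2A-/- 2 and 3 and at or above their 9-array mean on the Lyl1-/- arrays.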

How the data were processed

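The authors deposited 1 linear intensity per probe set and array. RMA and oligo are listed in the submitters' processing notes. Their versions, settings and any background step are not given in the sources used here. Array medians were 77.9 to 79.2 and the lowest intensities 42.1 to 45.1. The plan allowed for either scale, and log2 was taken without a pseudocount. Of 45101 probe sets, 64 controls, 932 with several genes and 9160 with none were left out. Entrez identifiers of 34741 probe sets were in the RefSeq gene table (GRCm38.p6) and changed 0 symbols. Tests used limma 3.58.1 in R 4.3.3 (lmFit, eBayes) on 8 samples (5 residual degrees of freedom), WT 1 and 3 averaged, with Benjamini-Hochberg adjustment over the 20402 probe sets that exceeded the array's median in 3 or more arrays and a threshold of 0.05. The number of arrays limits precision. The fit was tested on simulated data.

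Genes and lists were chosen with earlier results of these data known. Named were all probe sets of the 10 genes, Tcf3 and Lyl1, up to 4 genes per list and comparison by smallest p, and the 5 nearest to Gfi1b; other marker genes quoted from the lists were chosen after their values were seen. Alternatives were other normalizations, background, filters, 1 probe set per gene, 9 separate arrays, a replicate block, 2 groups only and arrays left out. Same-numbered arrays did not clearly pair: of 9 such pairs, 3 had a correlation of deviations over 0.1 (range -0.14 to 0.25). For 5 of the 9 arrays the best partner in another genotype had the same number.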

Additional observations from a re-analysis of the deposited data

Results flagged for a closer look

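Gfi1b was flagged because it differed between the knockouts. All 3 E2A-/- arrays lay below and all 3 Lyl1-/- arrays above the WT arrays, but neither difference from WT passed (limma adjusted p = 0.234 and 0.469). The difference between the knockouts was tested directly, at -1.18 on the log2 scale (limma adjusted p = 0.0488; range over 20 alternatives 0.0164 to 0.551). Groups of 3 arrays are too small for a test of single outlying arrays, so the high Pf4 value of E2A-/- 3 was not put to one.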

How the results depend on the processing

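Over 20 alternatives, 9 of which left out 1 array, 699 differences of the 10 genes were recomputed: 662 kept direction and side of the threshold, 20 changed sign, 5 passed newly and 12, all Gfi1b between the knockouts, no longer passed. The Gfi1b call was also lost with median centring (limma adjusted p = 0.0616), without a filter (0.106), with only the knockouts fitted (0.108) and on leaving out WT 2 with E2A-/- 2 (0.311). With these arrays of high actin ratio left out, Gp1bb turned to 0.04 in E2A-/- minus WT, 0.03 in Lyl1-/- minus WT and 0.02 between the knockouts, and Cnrip1 (brighter) to 0.04 between them. Without E2A-/- 2 and 3, E2A-/- minus WT turned to -0.28 for Pf4 and 0.05 for Gp9, and E2A-/- minus Lyl1-/- to 0.17 for Itga2b and 0.02 for Cnrip1. Leaving out 1 array at a time, E2A-/- minus WT ranged from -0.39 to 0.58 for Pf4 and -0.13 to 0.02 for Gp1bb, Lyl1-/- minus WT from -0.05 to 0.03 for Gp1bb, -0.07 to 0.14 for Gp5 and -0.02 to 0.04 for Vwf, and E2A-/- minus Lyl1-/- from -0.10 to 0.05 for Gp1bb, -0.17 to 0.04 for the brighter and -0.03 to 0.08 for the dimmer Cnrip1 probe set. Fits without WT 2, and that without E2A-/- 2 and 3, leave 1 sample in a genotype, assumed to vary like the others. The cause was not tested.

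Counts of all probe sets past the threshold were 45 in E2A-/- minus WT, 44 in Lyl1-/- minus WT and 15 between the knockouts. With 1 probe set per gene, where fewer were tested, the first 2 were 27 and 23. With 9 separate arrays they were 154 and 149. The replicate number as a block on those 9 arrays gave 94 and 88, and for Gfi1b between the knockouts a limma adjusted p of 0.0275. The numbers did not clearly pair the samples. With only the 2 groups compared, the first was 14. Without WT 2 and E2A-/- 2 the 3 counts were 15, 12 and 6, and without E2A-/- 2 and 3 the first and last were 11 and 4. Leaving out 1 array gave 15 (without WT 2) to 54, 12 (without Lyl1-/- 1) to 63 and 4 (without E2A-/- 3) to 26. Intensities near the array median, as for Vwf, Gp5 and Gp1bb, limit what can be seen of those genes.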
